A study of Mus musculus with 25 samples.

Results

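V segments are the germline pieces of DNA that encode most of the antigen-binding part of a T cell receptor chain, and 162 of the 46078 rows of the count table were such segments. They were all rows whose mouse symbol starts with Trav (the alpha chain, 128 rows on chromosome 14) or Trbv (the beta chain, 34 rows on chromosome 6). A developing T cell joins a V segment to other segments of the same chain and carries the choice through later divisions. The V segments read in a population therefore describe its receptor repertoire. RNA came from sorted CD4 T cells of mice of the C57BL/6NTac strain that were wild-type, knock-out or knock-in for miR-150, a microRNA of resting lymphocytes. Each genotype was sampled in naive animals and 7 days after experimental autoimmune encephalomyelitis (EAE) was induced. EAE is a model of multiple sclerosis in which immunization drives T cells against myelin. The 25 libraries comprised 5 from wild-type cells at day 7 and 4 per remaining group. The labels do not give the allele design, the age of the animals, the antigen of the immunization, the organ the cells were sorted from, or whether replicates are different animals. A p-value here therefore reflects only how far these samples scatter, and that scatter may be technical.

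In this locus the order and the copies of segments matter for reading the values. The mouse alpha locus holds a large duplicated stretch, so many Trav segments exist as a plain copy (Trav14-3), a copy with d in its name (Trav14d-3-dv8) and a copy with n (Trav14n-3). Some alpha segments, marked dv in their symbols, are also joined into delta chains, the receptors of gamma-delta T cells. Certain segments mark whole cell populations: Trav11 is used by invariant NKT cells and Trav1 by MAIT cells. A well-known mouse T cell receptor against myelin oligodendrocyte glycoprotein is built from a Trav9 family segment and Trbv16, and Trbv13-2 is known from T cells against myelin basic protein in other mouse strains.

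The sequences below are stretches of V exons from the GENCODE M21 transcripts, 5′ to 3′ on the plus strand of mm10, and show how far copies can be told apart by reads. The first 3 are copies of the segment whose share varied most between libraries relative to counting error. Capitals mark bases that differ from Trav14d-3-dv8, and in Trav14d-3-dv8 the bases at which a copy differs. They lie at chr14:53078967-53079026, chr14:53763616-53763675 and chr14:53370497-53370556.
Trav14d-3-dv8: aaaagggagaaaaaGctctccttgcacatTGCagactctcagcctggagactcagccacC
Trav14-3: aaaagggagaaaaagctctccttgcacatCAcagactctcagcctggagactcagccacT
Trav14n-3: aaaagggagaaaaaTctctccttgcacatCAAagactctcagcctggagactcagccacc

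The next 3 are a copy triplet of which a pair has the same V exon, at chr14:52916273-52916332, chr14:53227247-53227306 and chr14:53616761-53616820. Capitals mark the positions at which Trav12-2 differs from Trav12d-2.
Trav12d-2: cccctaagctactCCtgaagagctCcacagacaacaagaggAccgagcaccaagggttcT
Trav12n-2: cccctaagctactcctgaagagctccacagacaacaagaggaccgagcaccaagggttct
Trav12-2: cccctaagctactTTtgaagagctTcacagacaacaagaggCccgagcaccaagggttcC

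Another set holds the segment with the smallest adjusted p and one of its copies, at chr14:53560069-53560128 and chr14:52863758-52863817, with differing bases in capitals.
Trav15-1-dv6-1: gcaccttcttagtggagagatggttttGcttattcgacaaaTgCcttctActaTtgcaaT
Trav15d-1-dv6d-1: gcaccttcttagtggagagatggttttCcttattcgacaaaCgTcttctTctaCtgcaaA

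The last set shown is the Trbv13 family, the beta family with the highest summed share, at chr6:41121751-41121810, chr6:41116387-41116446 and chr6:41130504-41130563. Capitals mark bases that differ from Trbv13-2, and in Trbv13-2 the bases at which a relative differs.
Trbv13-2: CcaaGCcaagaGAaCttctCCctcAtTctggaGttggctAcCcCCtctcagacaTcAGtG
Trbv13-1: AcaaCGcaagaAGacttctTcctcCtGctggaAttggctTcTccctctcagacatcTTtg
Trbv13-3: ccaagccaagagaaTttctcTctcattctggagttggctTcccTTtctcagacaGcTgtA

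Counts were raw reads per gene as the authors deposited them. Total counts ran from 6024043 to 49489134 per library, and between 1136 and 8447 of them fell on Trav rows and 1055 to 8658 on Trbv rows. In the library with the fewest V segment counts, wild-type day 7 replicate 2, a segment with 0 counts could hold a share of up to 0.264% of Trav or 0.284% of Trbv counts, for counting error only. Summed Trav rows held 186 ± 11.7 and summed Trbv rows 174 ± 15.2 TMM-scaled CPM, that is, counts scaled to library size (SD, n = 25). The constant gene of the alpha chain, Trac, held 270.2 ± 28.1 CPM and did not pass the test between day 7 and naive cells in wild-type libraries (log2 difference 0.01, SE 0.09, adjusted p = 0.988 from edgeR). Cd4 was found in every library at 443 to 582 CPM. Cd8a, a defining gene of CD8 T cells, was at 0.16 to 6.77 CPM. Summed over 8 B cell markers, the libraries held 142.3 to 213.8 CPM. Replicate 3 of the knock-out day 7 group was the deepest library. Naive wild-type libraries were the shallowest group on average, with a mean total of 7683681 counts against 18294636 to 28094420 in the other groups. They held 1140 to 1857 Trav counts each. The part of depth in differences between this group and the others was not tested.

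Of the 162 segments, 95 had 100 or more counts over the 25 libraries (73 Trav and 22 Trbv) and are described in detail. They held 99.3% of the 95865 Trav counts and 99.8% of the 90404 Trbv counts. Another 44 segments had 1 to 99 counts and 23 had 0. At the limit, Trav9d-4 had 105 counts and Trav4d-2 had 125, while Trav12-4 had 92 and Trbv22 had 86. The annotation calls 129 segments functional and 33 pseudogenes. Of the pseudogenes 8 reached 100 counts: Trav4d-2, Trav15d-3, Trav11n, Trav13-3, Trav8-2, Trav15-3, Trav20 and Trbv24. Trav8-2, with 1053 counts, and Trbv24, with 915, were the highest of them. Pseudogene rows held 2.71% of Trav and 1.17% of Trbv counts. Gene counts do not separate productive rearrangements from out-of-frame ones.

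Functional Trav segments whose V exon had an identical copy were nearly without counts. The V exons of 38 functional Trav segments were identical to that of another segment, and these 38 rows held 297 counts in all, at most 68 in one row, with 11 rows at 0 and none at 100 or more. The other 70 functional Trav segments held 92974 counts, with a median of 917 per row and 66 rows at 100 or more. The 27 segments with 1 to 5 differences from their closest copy had a median of 758 counts, and 26 of them reached 100. In the printed triplet, the identical pair Trav12d-2 and Trav12n-2 both had 0 counts, while Trav12-2, which differs by 11 bases over the exon, had 1271. No Trbv V exon was identical to another, and all 21 functional Trbv rows held at least 290 counts. How the authors treated reads that map to several places is not given in the sources used here. A count of 0 in a row with an identical copy therefore does not show that the segment was unused, and the shares describe only the segments that could be counted apart.

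**Figure D1:**
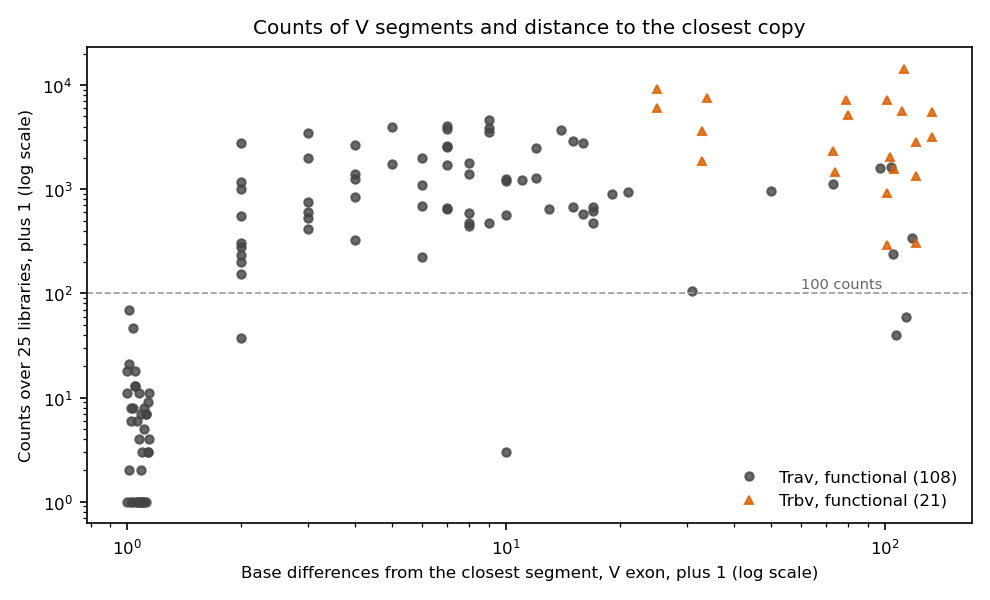
Counts over the 25 libraries of each functional V segment (y axis, plus 1, log scale) against the number of bases by which its V exon differs from the closest segment (x axis, plus 1, log scale), with Trav as circles and Trbv as triangles. The 38 Trav segments at 0 differences, spread sideways to be visible, all lie under the dashed line at 100 counts.

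Beta chain use was led by 1 segment. Trbv3 (ENSMUSG00000076463, chr6:41048290-41048828) held 16.3% ± 2.35 (SD, n = 25) of Trbv counts, from 11.7% in replicate 3 of the knock-out day 7 group to 20.3% in replicate 2 of the same group. Trbv13-2 followed with 9.90% ± 1.2, Trbv13-1 with 8.26% ± 0.96, Trbv2 with 8.12% ± 1.19, Trbv15 with 7.72% ± 1.44 and Trbv13-3 with 6.5% ± 0.96 (SD, n = 25 each). From Trbv13-1 to Trbv15, neighbours in this order differed by less than their SD over libraries. The 3 most-used segments held 34.4% of Trbv counts, the first 6 held 56.8% and the first 10 held 78.7%. The 3 members of the Trbv13 family together held 24.7% ± 1.89 (SD, n = 25), above Trbv3 in each library. Longer exons collect more reads, so shares were also computed from counts per base of annotated exon. Trbv3 then held 14.3%, Trbv13-2 11.6% and Trbv13-1 9.01%, still the first 3, while Trbv2, whose annotated exons span 560 bases, moved from rank 4 to rank 7 at 5.80%. Trbv31, which lies inverted and downstream of the constant genes at the far end of the locus, held 3.56% ± 0.86 of Trbv counts (SD, n = 25).

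Alpha chain use was flat by comparison. Trav14-2 (ENSMUSG00000095711, chr14:53640701-53641225) held 4.78% ± 0.77 of Trav counts, Trav14-3 4.14% ± 0.87, Trav3-3 4.12% ± 0.89, Trav4-4-dv10 4.07% ± 0.82, Trav14n-3 4.02% ± 0.68 and Trav14-1 3.98% ± 0.97 (SD, n = 25 each). Neighbours in this order differed by less than 1 SD over libraries, and per base of exon the same 6 segments came first, with Trav14-2 at 4.73%. The first 10 Trav segments held 38.3% of Trav counts. The 9 members of the Trav14 family held 20.6% ± 1.96, the highest of the Trav families described here. The 10 segments annotated as also used by delta chains held 17.9% ± 2.27 of Trav counts (SD, n = 25).

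**Figure D2:**
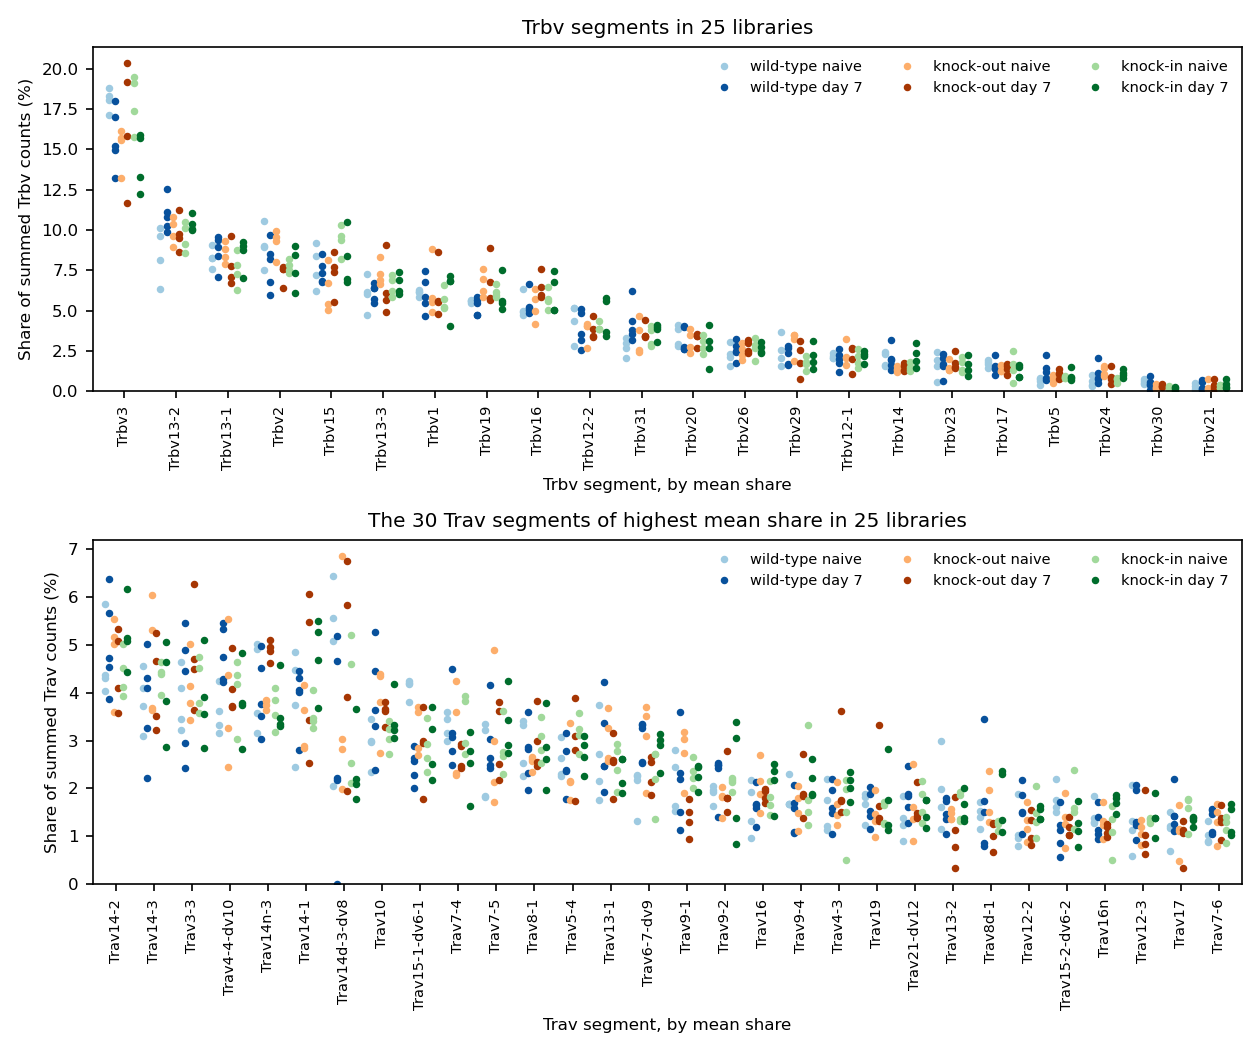
Share of summed Trbv counts (top) for every detailed segment, and of summed Trav counts (bottom) for the most-used Trav segments, in percent, in order of mean share, with 1 point per library coloured by group. Trbv3 lies between 11.7% and 20.3%, and Trav14d-3-dv8, the seventh Trav segment, extends from 0% to 6.85%.

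Evenness was summarised as the effective number of segments, the number of equally used segments that would give the same Shannon entropy. For Trbv, wild-type libraries had 15.5 ± 0.33 when naive (SD, n = 4) and 16.0 ± 0.30 at day 7 (SD, n = 5). It was 15.9 ± 0.25 and 15.7 ± 0.79 in knock-out, and 15.3 ± 0.44 and 16.1 ± 0.27 in knock-in libraries (SD, n = 4 each). For Trav it was 50.1 ± 0.65 (SD, n = 4) and 47.8 ± 2.27 (SD, n = 5) in wild-type, 49.2 ± 1.99 and 47.3 ± 3.35 in knock-out, and 51.5 ± 1.97 and 49.7 ± 1.82 in knock-in libraries (SD, n = 4 each), in naive and day 7 cells. Naive and day 7 ranges overlapped for Trav in each genotype. Thinned to 1136 Trav counts per library, 76.3 ± 1.24 Trav rows were found in naive and 70.6 ± 5.26 in day 7 wild-type libraries, against 78.2 ± 2.87 and 74.8 ± 5.59 without thinning (SD, n = 4 and n = 5). The lowest of these was day 7 replicate 1, with 62.7 thinned rows and an effective number of 44.6. A stretch of the locus described further on was nearly without counts in that library. The other wild-type day 7 libraries held 69.9 to 77.0 thinned rows.

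Day 7 and naive cells were compared in each genotype to ask whether EAE induction shifted V segment use, and the genotypes were compared at each stage to ask whether miR-150 did. Every segment was tested within the whole table of 14703 genes, of which 93 were V segments, on its level in CPM and on its share of the summed counts of its chain. In none of the 12 comparisons did a segment pass the test on either scale (edgeR's quasi-likelihood test, Benjamini-Hochberg adjusted p under 0.05). At an unadjusted p under 0.05, between 2 and 9 of the 93 segments were counted per comparison and scale. The share of all genes at that unadjusted threshold was not computed, so these counts are not read as a result. Below, groups of some segments or families picked by their p are said not to overlap. The share of all segments without overlap is not given, so this is a description and adds no support. DESeq2, run on levels, called 1 segment (Trav9-1, knock-out response, where it called 1.51% of all genes), and limma voom called 1 on the share scale (Trav15-1-dv6-1, wild-type response, where it called 3.52%). The day 7 response called 2.14% of all genes in wild-type, 0.408% in knock-out and 2.02% in knock-in libraries, and 11.2% averaged over the 3 genotypes. Knock-out against wild-type called 0.0204% of genes in naive cells and 0.0476% at day 7, and knock-in against wild-type 0.0136% and 0.0% at these stages. Knock-out against knock-in called 0.163% in naive cells and 0.374% at day 7. The comparisons of the day 7 change between genotypes (interactions) called 0.0%. Several comparisons share libraries, such as the wild-type groups, and are not independent of each other.

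Segments lay on both sides of 0. On the level scale 45 of 93 were higher and 48 lower at day 7 in wild-type libraries (median log2 difference -0.02, beside -0.002 over all genes tested). The most uneven comparison was knock-out against knock-in in naive cells, with 37 higher and 56 lower on that scale (median -0.07, beside 0.01 over all genes tested). Counts on the share scale are not used here, since shares of 1 total balance by construction. The median standard error of a segment's log2 share difference was 0.356 for wild-type day 7 against naive, so the 95% interval lay within a 2-fold change in either direction for 42 of the 93 segments. It did so for 43 segments in knock-out and 45 in knock-in libraries, and for 70 when the genotypes were averaged. Between knock-out and wild-type the numbers were 44 in naive cells and 44 at day 7. For the other segments a 2-fold change was not excluded at this depth and number of libraries. The smallest standard errors belonged to Trbv13-2. In bulk RNA, fewer cells that use a segment and less receptor RNA per cell cannot be told apart.

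Segments known from receptors against myelin were not called. Trbv13-2 (ENSMUSG00000076469) held 9.61%, 10.1%, 6.36% and 8.15% of Trbv counts in the 4 naive wild-type libraries and 11.1%, 10.8%, 12.5%, 10.2% and 9.85% in the 5 at day 7. The ranges overlapped by the highest naive and the lowest day 7 libraries. Its log2 share difference was 0.36 (SE 0.12, 95% interval 0.11 to 0.61, adjusted p = 0.121 from edgeR), and it was -0.01 (SE 0.12, adjusted p = 0.977) in knock-out and 0.12 (SE 0.12, adjusted p = 0.732) in knock-in libraries. Trbv16 held 4.98%, 6.35%, 4.90% and 4.71% in naive wild-type libraries and 6.64%, 5.21%, 5.15%, 4.83% and 5.05% at day 7. These groups overlapped, and the log2 share difference was 0.04 (SE 0.16, 95% interval -0.28 to 0.37, edgeR adjusted p = 0.941). Knock-out libraries held 4.19%, 4.98%, 6.32% and 5.72% when naive and 7.60%, 5.83%, 5.97% and 6.46% at day 7 (log2 share difference 0.29, SE 0.16, 95% interval -0.03 to 0.61, adjusted p = 0.445). In knock-in libraries the mean share of Trbv16 was 5.71% when naive and 6.07% at day 7 (log2 share difference 0.08, SE 0.16, adjusted p = 0.883). The Trav9 family, with 11 rows, held 7.18% ± 0.62 of Trav counts in wild-type libraries when naive (SD, n = 4) and 7.27% ± 0.99 at day 7 (SD, n = 5). Of its rows Trav9d-2, Trav9n-2, Trav9d-3 and Trav9n-3 have a V exon with an identical copy and held 0 to 4 counts, so their use cannot be read from these data.

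Trav9-1 (ENSMUSG00000096900), a member of that family, had the smallest p in the knock-out response. Its share was 2.73%, 3.03%, 3.19% and 1.90% in naive knock-out libraries and 1.78%, 1.5%, 0.938% and 1.29% at day 7. All 4 day 7 libraries lay below the lowest naive one, the lowest being replicate 3. The log2 share difference was -0.98 (SE 0.29, 95% interval -1.56 to -0.39, edgeR adjusted p = 0.115). On the level scale it was -1.0 (SE 0.29, adjusted p = 0.109), and DESeq2 gave the same size with adjusted p = 0.0463, so the call depended on the tool. In wild-type libraries the share of Trav9-1 was 2.11% ± 0.62 when naive (SD, n = 4) and 2.15% ± 0.94 at day 7 (SD, n = 5).

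Few counts fell on segments of innate-like T cells. Trav1, the alpha segment of MAIT cells, held 0.334% ± 0.233 of Trav counts (SD, n = 25), from 0% to 0.859%. Trav11, which invariant NKT cells use, had 17 counts over all libraries and its copy Trav11d had 20. Their V exons are identical, so these counts do not show how often they were used. The pseudogene Trav11n held 163. The summed level of 5 NK and NKT markers was 5.88 to 10.6 CPM in naive and 1.76 to 6.25 CPM in day 7 wild-type libraries. It was 7.01 to 17.9 and 6.40 to 10.3 CPM in knock-out libraries, which overlapped, and 4.96 to 7.35 and 2.54 to 4.755 CPM in knock-in libraries. Among these markers Zbtb16, a transcription factor of innate-like T cells, was at 1.65 to 3.18 and 0.311 to 2.77 CPM in wild-type libraries.

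The response with the smallest adjusted p for a share was that of Trav15-1-dv6-1 (ENSMUSG00000094016, chr14:53559632-53560247), a segment that alpha and delta chains both use. It held 4.21%, 3.81%, 4.19% and 4.25% of Trav counts in naive wild-type libraries and 2.02%, 2.29%, 2.63%, 2.57% and 2.88% at day 7, and these groups did not overlap. The log2 share difference was -0.73 (SE 0.21, 95% interval -1.15 to -0.30, edgeR adjusted p = 0.060), just short of the threshold. With a stricter filter on low counts, under which 3.44% of genes were called, the adjusted p was 0.0486, and with limma voom and quality weights it was 0.0384. Its relative Trav15-2-dv6-2 held 1.77% ± 0.31 (SD, n = 4) and 1.10% ± 0.43 (SD, n = 5) at these stages, with a log2 share difference of -0.71 (SE 0.33, adjusted p = 0.291).

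Counts were therefore also summed over V families, an alternative to the test of single segments. Of 39 families tested, Trav15 was called lower at day 7 in wild-type libraries, where 0.976% of all rows tested were called lower, and 0 were called higher. The Trav15 family, 9 rows, held 7.54%, 6.37%, 7.04% and 7.43% of Trav counts in naive wild-type libraries and 3.0%, 4.14%, 4.52%, 4.10% and 4.82% at day 7. These shares rest on 86 to 138 Trav15 counts per naive library, the shallowest group, and 47 to 287 per day 7 library. Every day 7 library lay below every naive one. Trav15-1-dv6-1 and Trav15-2-dv6-2 together went from 5.89% ± 0.44 to 3.58% ± 0.65, and the other 7 rows from 1.21% ± 0.30 to 0.535% ± 0.48 (SD, n = 4 and n = 5). Among those 7, Trav15d-3, Trav15n-1 and Trav15n-2 lie in the stretch described further on that was nearly without counts in wild-type day 7 replicate 1, and each had 0 counts there. The log2 share difference was -0.78 (SE 0.18, 95% interval -1.16 to -0.41, edgeR adjusted p = 0.0188), and the level difference was -0.76 (SE 0.21, adjusted p = 0.0461). The call on the share was lost when wild-type naive replicate 1, 3 or 4 or wild-type day 7 replicate 1 was left out, with adjusted p up to 0.0661 and log2 differences of -0.85 to -0.69 over the 9 libraries left out in turn. On the level it was lost without 8 of the 9 libraries, all but wild-type day 7 replicate 3, with adjusted p up to 0.134.

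In naive cells the mean Trav15 share was below that of wild-type in both mutants, though neither difference passed the test (log2 share difference -0.40, SE 0.19, edgeR adjusted p = 0.653 for knock-out and -0.45, SE 0.19, adjusted p = 0.9996 for knock-in). The Trav15 shares were 5.79%, 4.23%, 4.45% and 6.84% in naive and 4.77%, 4.61%, 3.21% and 5.29% in day 7 knock-out libraries. In knock-in libraries they were 4.5%, 5.88%, 4.94% and 5.63% in naive and 3.77%, 5.72%, 3.62% and 5.57% in day 7 cells. Both pairs of groups overlapped, with log2 share differences of -0.28 (SE 0.19, edgeR adjusted p = 0.570) and -0.17 (SE 0.19, adjusted p = 0.764). The changes in knock-out and wild-type cells differed by 0.51 (SE 0.26, adjusted p = 0.635) and those in knock-in and wild-type cells by 0.62 (SE 0.26, adjusted p = 0.999), so the response was not shown to differ between genotypes. Averaged over the 3 genotypes, the Trav15 share was lower by day 7 with a log2 difference of -0.41 (SE 0.11, adjusted p = 0.0129), where 5.09% of rows were called lower, and it stayed called without each of the 25 libraries in turn.

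Markers of gamma-delta T cells were also lower at day 7 in wild-type libraries. All 6 markers on the list (Trdc, Trdv4, Tcrg-C1, Tcrg-C2, Tcrg-C4 and Sox13) were found in wild-type libraries, with a summed level of 15.8 to 24.9 CPM in naive and 8.39 to 14.9 CPM in day 7 cells. The ranges were 16.6 to 24.2 and 11.6 to 18.0 CPM in knock-out libraries and 15 to 19.9 and 8.17 to 11.2 CPM in knock-in libraries, where 1 marker was at 0 at day 7. Trdc, the delta constant gene, fell by 0.79 on the log2 scale in wild-type libraries (SE 0.15, edgeR adjusted p = 0.00298) and by 0.80 (SE 0.16, adjusted p = 0.00468) in knock-in libraries, and had a log2 difference of -0.54 (SE 0.15, adjusted p = 0.102) in knock-out libraries. The level of the Trav15 family in wild-type libraries was 13.3 ± 1.10 CPM when naive (SD, n = 4) and 7.80 ± 1.70 CPM at day 7 (SD, n = 5), beside 14.3 ± 1.64 and 8.28 ± 1.10 CPM for Trdc. In knock-in libraries Trdc went from 13 ± 1.60 to 7.45 ± 1.07 CPM while the Trav15 family went from 9.73 ± 1.75 to 8.58 ± 2.09 CPM (SD, n = 4 each). The Trav15 family was not called in knock-in libraries, and its change there was not shown to differ from that in wild-type cells. Other segments that delta chains use went in both directions by day 7 in wild-type libraries, without a call. All 10 such segments, those of Trav15 included, summed to 19.5% ± 1.57 of Trav counts when naive (SD, n = 4) and 17.5% ± 2.95 at day 7 (SD, n = 5). Mean shares fell from 4.78% to 2.85% for Trav14d-3-dv8 and from 0.353% to 0.231% for Trav16d-dv11. Both lie in the stretch described further on that was nearly without counts in wild-type day 7 replicate 1, and each had 0 counts there. The mean share of Trav13-4-dv7 was also lower at day 7. Mean shares rose for Trav4-4-dv10, Trav6-7-dv9 and Trav21-dv12. Trav4-4-dv10 held 3.59% when naive and 4.81% at day 7 (log2 share difference 0.43, SE 0.21, edgeR adjusted p = 0.315). The values were 2.01% and 3.0% for Trav6-7-dv9 (0.57, SE 0.23, adjusted p = 0.223) and 1.35% and 1.82% for Trav21-dv12 (0.46, SE 0.29, adjusted p = 0.506). The part of gamma-delta cells in the Trav15 result was not tested.

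**Figure D3:**
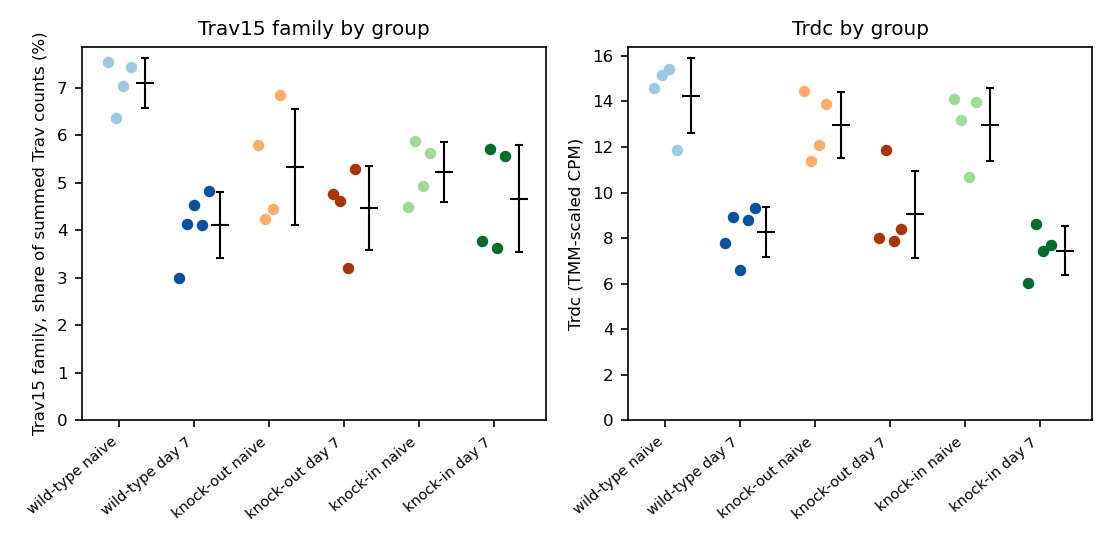
Share of the Trav15 family in summed Trav counts in percent (left) and level of the delta constant gene Trdc in TMM-scaled CPM (right) by group, with 1 point per library and the mean and SD as a bar with caps. Wild-type naive libraries lie at 6.37% to 7.54% for Trav15 and wild-type day 7 libraries at 3.0% to 4.82%, while Trdc is lower at day 7 on average in each genotype.

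Between genotypes, the segment with the smallest adjusted p on the share scale was Trbv15, in naive knock-out against knock-in cells. It held 5.41%, 6.75%, 5.04% and 8.17% of Trbv counts in knock-out and 10.3%, 9.39%, 9.65% and 8.19% in knock-in libraries, groups that touched but did not overlap (log2 share difference -0.57, SE 0.16, edgeR adjusted p = 0.167). Without the filter on low counts the level of Trbv15 was called (log2 difference -0.67, adjusted p = 0.00607, with 0.903% of genes called). Wild-type naive libraries held 6.23% to 9.21%, a range that overlaps both. Trbv3 held 18.1% ± 0.72 in naive wild-type and 15.2% ± 1.31 in naive knock-out libraries (SD, n = 4 each), with ranges of 17.1% to 18.8% and 13.3% to 16.2%. Its log2 share difference was -0.25 (SE 0.13, 95% interval -0.52 to 0.02, adjusted p = 0.698). At day 7 Trbv3 ranged from 13.2% to 18.0% in wild-type and from 11.7% to 20.3% in knock-out libraries. Trav13d-1, a low segment with 231 counts in all, had the smallest p between knock-out and wild-type at day 7. It was at 0%, 0.107%, 0% and 0.0968% of Trav counts in knock-out and 0.326%, 0.0880%, 0.441%, 0.915% and 0.317% in wild-type day 7 libraries, and these ranges overlapped (edgeR adjusted p = 0.198). Trav6-7-dv9 held 2.01% ± 0.46 in naive wild-type and 3.06% ± 0.81 in naive knock-out libraries (SD, n = 4 each; log2 share difference 0.61, SE 0.24, adjusted p = 0.555). For knock-in against wild-type at day 7, Trbv30 had the smallest p, with 0.108% to 0.941% of Trbv counts in wild-type and 0% to 0.298% in knock-in libraries (log2 share difference -1.74, SE 0.66, adjusted p = 0.999).

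In the knock-in response the smallest p was that of Trbv3 on the share scale. It held 17.3%, 15.8%, 19.5% and 19.1% of Trbv counts in naive knock-in libraries and 13.3%, 12.3%, 15.9% and 15.7% at day 7. The groups overlapped at the lowest naive and the highest day 7 library, and the log2 share difference was -0.33 (SE 0.13, 95% interval -0.59 to -0.06, edgeR adjusted p = 0.213). Trav8d-2 had the smallest p on the level scale there (log2 difference -1.70, SE 0.79, edgeR adjusted p = 0.295), with shares of 0.521%, 0.428%, 0.887% and 0.938% in naive and 0.258%, 0.0403%, 0.296% and 0.197% in day 7 libraries, without overlap. Between naive knock-in and wild-type libraries, Trav15-1-dv6-1 had the smallest p on the share scale, at 2.34% to 3.47% and 3.81% to 4.25% (log2 share difference -0.54, SE 0.22, edgeR adjusted p = 0.9996). The low segment Trav13d-1 had the smallest p on the level scale there, without a call. Its shares were 0.195% to 0.512% in knock-in and 0% to 0.0732% in wild-type libraries. These wild-type libraries held at most 1 count of it each. A count of 0 there allows a share of up to 0.162% to 0.263%, by library, for counting error only. Averaged over genotypes, Trav2 had the smallest p on the share scale (log2 difference 1.08, SE 0.39, edgeR adjusted p = 0.0734) and Trbv31 on the level scale (0.34, SE 0.12, adjusted p = 0.0723).

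Some segments were high in 1 library. Among segments with a mean share of at least 1%, the highest ratios of the top library to the median belonged to Trbv14, Trbv31 and Trbv29 and to Trav7d-4, Trav8d-1 and Trav13n-4. Trbv31 reached 6.20% in wild-type day 7 replicate 1, where the median library held 3.42%. Trbv14 reached 3.17% in wild-type day 7 replicate 3 against a median of 1.60%, and Trbv29 3.68% in wild-type naive replicate 2 against 2.18%. Trav13n-4, like Trav7d-4 and Trav8d-1, was highest in wild-type day 7 replicate 1, at 2.34% against a median of 0.915%.

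Replicate libraries differed from each other by more than counting error. Over the 18 Trbv segments with a mean share of at least 1%, the median coefficient of variation beyond counting error was 11% in naive and 17.0% in day 7 wild-type libraries, 15.5% and 15.4% in knock-out, and 8.42% and 17.6% in knock-in libraries. Over the 36 such Trav segments it was 13.3% and 21.5% in wild-type, 22.9% and 21.9% in knock-out, and 11.2% and 17.4% in knock-in libraries. It was higher at day 7 in wild-type and knock-in but not in knock-out libraries, and this order was not tested.

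One segment stood out in its variation relative to counting error, a measure that grows with the counts of a segment. Trav14d-3-dv8 (ENSMUSG00000094619, chr14:53078452-53079045) had an index of dispersion, the variance over libraries relative to counting error, of 37.2. The next, Trbv3, had 12.8, and the median of the segments described in detail was 5.77. In the ratio of the highest to the median library, Trav14d-3-dv8 (2.26) did not stand out. Segments with fewer counts, such as Trav7d-4 (2.97), exceeded it. The share of Trav14d-3-dv8 in Trav counts was 5.09%, 5.56%, 6.44% and 2.05% in naive wild-type and 0%, 5.19%, 4.67%, 2.21% and 2.18% in day 7 wild-type libraries. Knock-out libraries held 2.83%, 3.03%, 2.00% and 6.85% in naive and 1.94%, 3.91%, 5.83% and 6.74% in day 7 cells. In knock-in libraries it was 2.12%, 2.53%, 4.60% and 5.2% in naive and 3.66%, 2.10%, 2.20% and 1.77% in day 7 cells. Each group held both low and high libraries, apart from the knock-in day 7 group, whose highest was 3.66%. With the filter on low counts no comparison called it (wild-type day 7 against naive, log2 share difference -0.78, SE 0.57, 95% interval -1.95 to 0.38, edgeR adjusted p = 0.567). Without the filter edgeR called Trav14d-3-dv8 lower at day 7 in wild-type libraries (share -0.78, adjusted p = 0.0235, with 3.0% of genes called) and higher in knock-out than knock-in libraries at day 7 (share 0.91, adjusted p = 0.0108, with 1.36% called). Its copies had lower indices, 8.49 for Trav14-3, with shares of 2.22% to 6.04%, and 4.42 for Trav14n-3, with 3.03% to 5.11%.

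In replicate 1 of the wild-type day 7 group, Trav14d-3-dv8 had 0 of 3370 Trav counts, which allows a share of up to 0.089% for counting error only. At its pooled share in the other libraries 129 counts would stand there. The absence reached its neighbours. Starting from Trav14d-3-dv8 and going outwards along the locus while each segment with 100 or more counts stood under 0.5 of its expected count, the run covered 12 segments from Trav8d-2 to Trav9n-4, a stretch of 253 kb with 29 annotated V segments at chr14:53042428-53295030. These 12 held 3 counts in that library, all on Trav6n-5, where 307 were expected, and the other 11 were at 0. The segments on either side, Trav9d-4 with 15 and Trav13n-3 with 8 counts, were present. Outside the run 1 of 61 segments with 100 or more counts, Trav6-4, was at 0 in that library. Trav8n-2, the next segment after Trav13n-3, held 8 counts where 24.4 were expected, also under 0.5 of its expected count. So were Trav7-3, with 13 counts where 27.1 were expected, and Trav13-3, with 3 where 7.32 were expected. The run was chosen after these values were seen, and they are given as a description.

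The same neighbours rose and fell with Trav14d-3-dv8 in the other 24 libraries. Summed, the other 11 segments of the run held 1.99% to 8.67% of Trav counts there, and their rank correlation with the share of Trav14d-3-dv8 was 0.76 (Pearson's r = 0.87, n = 24, a description, since the points share library depth and the same total). Taken singly, all 11 had a positive rank correlation with it, with a median of 0.587, while 18 of the 61 segments outside the run did, with a median of -0.172. The whole run, with Trav14d-3-dv8, held 12.1%, 12.3%, 13.4% and 5.33% of Trav counts in naive wild-type libraries and 0.089%, 12.9%, 13.3%, 5.57% and 4.89% at day 7. Knock-out libraries held 8.37%, 5.84%, 6.48% and 15.6% in naive and 5.69%, 10.4%, 13% and 13.5% in day 7 cells, and knock-in libraries 6.17%, 5.84%, 11.6% and 12.9% in naive and 7.92%, 4.39%, 4.34% and 5.67% in day 7 cells. Of the 25 libraries, 1 lay near 0, others between 4.34% and 8.37%, and the rest between 10.4% and 15.6%. Some segments upstream of the run were high in wild-type day 7 replicate 1: Trav7d-4 held 3.50% there and 0.502% to 2.03% in the other 24 libraries, and Trav8d-1 held 3.44% against 0.674% to 2.37%. No genomic DNA was measured, and neither the number of copies of this stretch in each animal nor the mapping of reads between copies was tested.

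**Figure D4:**
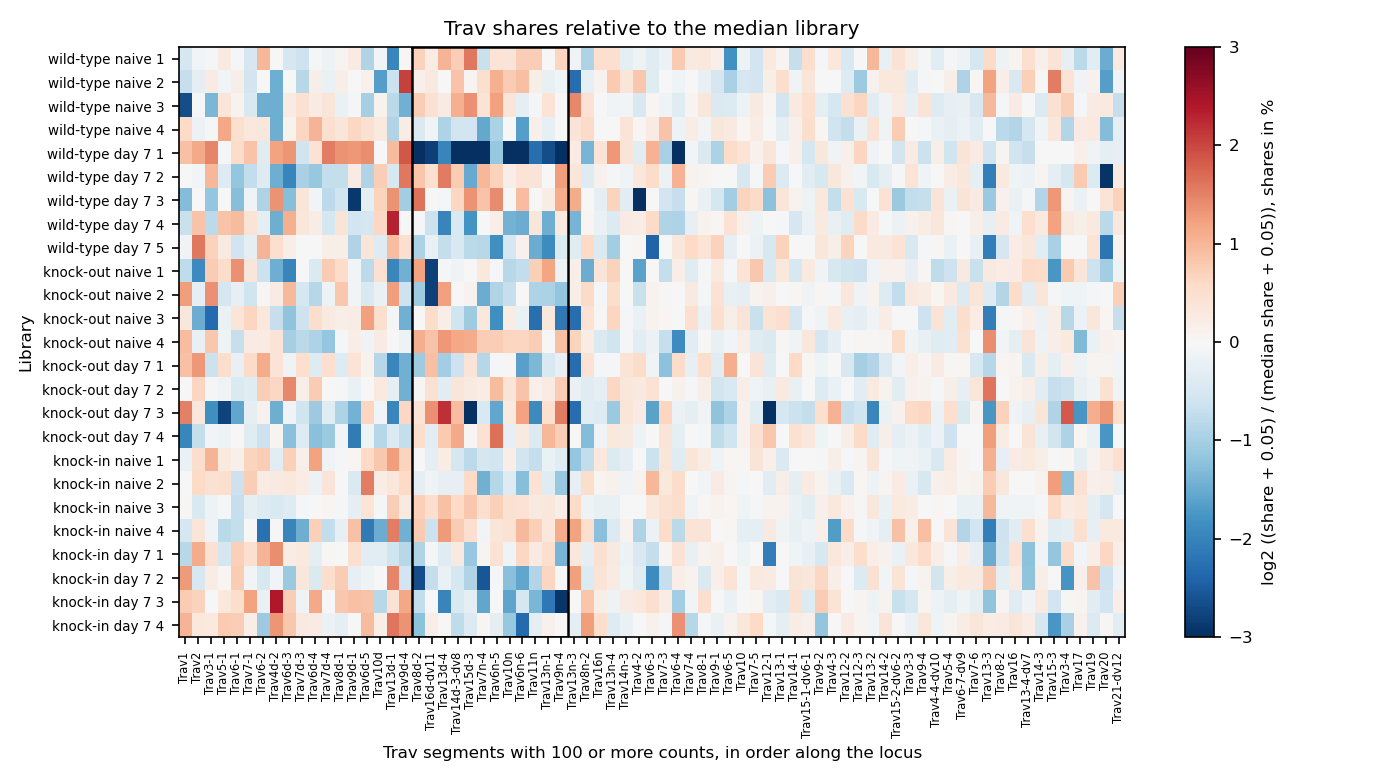
Share of each of the 73 Trav segments with 100 or more counts, in their order along the locus (x axis), in each of the 25 libraries (y axis), as log2 of the share plus 0.05 over the median share plus 0.05, in percent. The boxed run of 12 segments from Trav8d-2 to Trav9n-4 is blue (below the median) in wild-type day 7 replicate 1, where it held 3 counts, and red (above the median) in most cells of knock-out naive replicate 4.

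**Figure D5:**
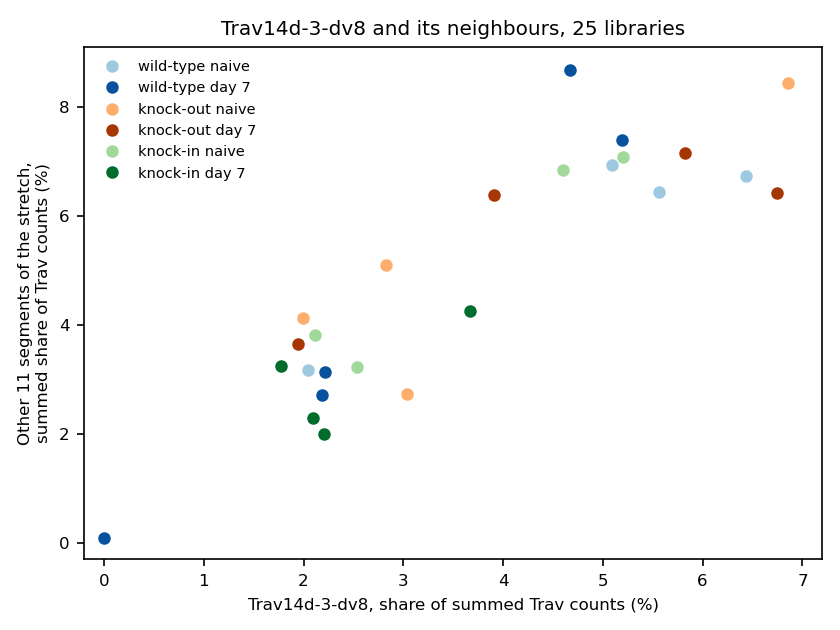
Share of Trav14d-3-dv8 (x axis) and summed share of the other 11 segments of the run (y axis) in percent of Trav counts, with 1 point per library coloured by group. Wild-type day 7 replicate 1 lies at 0% and 0.089%, and the other 24 libraries extend from 1.77% to 6.85% on the x axis and 1.99% to 8.67% on the y axis.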

How the data were processed

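Gene counts of 25 libraries (miRNeasy RNA, SMARTer Stranded Total RNA-Seq Pico libraries, read pairs of 150 bases, per the labels' protocols) were used as the authors deposited them, as raw whole-number counts per Ensembl gene. Per the submitters' processing notes the build was mm10 and DESeq2 was used. The aligner, the counter, the strand setting and the annotation are not given in the sources used here. Symbols, positions, exon lengths and V exon sequences came from GENCODE M21 (mm10), which gave a symbol to 45143 of 46078 IDs.

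The table was filtered with edgeR's filterByExpr (minimum count 10, minimum total 15), scaled by TMM and fitted with the quasi-likelihood model, 1 mean per group, 12 comparisons, two-sided, Benjamini-Hochberg over 14703 genes at 0.05. For shares, the offset of a V segment was the log of the summed Trav or Trbv counts of its library. Of 40 pairs of libraries within groups, none agreed within sampling noise (chi-square per degree of freedom at least 5.01). The procedure was also run on counts simulated with the same dispersion for every gene. Its outcome is not given here, and it does not speak to segments that vary more between libraries. Alternatives were no filter, a stricter one (5 CPM in 4 libraries), RLE, DESeq2, limma voom, only the groups compared, library number as a covariate, V families, and each library left out. Named segments were the 6 most used per chain, the smallest p of each main comparison and segments of known role. The 3 per chain with the highest peak to median share were also named. A few more were chosen after their values were seen. These were Trav2, Trbv5, Trav6-4, Trav7-3, Trav8n-2, Trav13-3, Trav15d-1-dv6d-1, Trav15d-3, the Trav12 copies and the segments of the run around Trav14d-3-dv8. The members, lists and rules were chosen with earlier results of these data known. The fits ran in edgeR 4.0.16 under R 4.3.3, with DESeq2 1.42.0 and limma 3.58.1 for alternatives, and tables and plots were made in Python 3.11.15 with scipy 1.17.1, pandas 2.3.3 and matplotlib 3.10.9.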

Additional observations from a re-analysis of the deposited data

Results flagged for a closer look

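In 240 checks of a named segment or summary value within a group of 4 or 5 libraries, 14 had a library whose gap to the nearest of the others was large against the group's whole range (above Dixon's critical value). Chance alone gives such a gap in about 1 in 20 groups. In the knock-out day 7 group, replicate 1 held 6.40% of Trbv2 against 7.57% to 7.70% in the others and 4.42% of Trbv31 against 3.40% to 3.42%, and replicate 3 held 2.14% of Trav21-dv12 against 1.39% to 1.48%. Wild-type day 7 replicate 1 was high in Trav7d-4 (3.50% against 0.662% to 1.34%) and in Trbv16 (6.64% against 4.83% to 5.21%). In the same group replicate 4 was low in Trav14-1 (2.81% against 4.01% to 4.45%) and replicate 2 low in Trav9-2 (1.41% against 2.42% to 2.52%). Among naive wild-type libraries, replicate 2 was low in Trav15-1-dv6-1 (3.81% against 4.19% to 4.25%) and in Trav6-7-dv9 (1.32% against 2.19% to 2.28%) and high in Trbv16 (6.35% against 4.71% to 4.98%). There replicate 1 was high in Trav9n-4 (0.789% against 0.439% to 0.486%) and replicate 3 high in Trav9-4 (2.31% against 1.67% to 1.68%). In knock-in libraries, day 7 replicate 3 was high in Trav14n-3 (4.57% against 3.30% to 3.46%), and naive replicate 2 had the highest summed Trav level, 205.1 CPM against 178 to 179.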

How the results depend on the processing

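Among the segment and family fold changes that were checked against alternatives, none reversed its sign. Not every fold change given above was checked. The count of called segments, 0 in each comparison, became 1 or 2 under some settings. Without a filter on low counts it was 2 for wild-type day 7 against naive on both scales (Trav14d-3-dv8 and Trav15d-1-dv6d-1, lower), 1 for knock-out against knock-in at day 7 on both scales (Trav14d-3-dv8, higher) and 1 in naive cells on the level (Trbv15, lower). It was 1 with DESeq2 for the knock-out response (Trav9-1), and 1 for the wild-type share with a stricter filter and with limma voom (Trav15-1-dv6-1). With V families it was 1 for wild-type and for the averaged response on both scales (Trav15). Leaving out 1 library gave 0 to 2 called segments on the level and 0 to 1 on the share scale in the averaged response (Trbv31, Trbv5, Trav2 or Trav15d-3) and 0 in the others. For the averaged response on the level these libraries were wild-type naive 4, wild-type day 7 replicates 1, 3 and 5, and knock-out naive 3 and 4, and on the share wild-type day 7 replicate 3, knock-out naive 4 and knock-out day 7 replicate 4. The averaged Trav15 level lost its call without knock-out naive 4, knock-out day 7 replicate 3, knock-in naive 2 or knock-in day 7 replicate 1. These refits of the family were chosen after seeing the data. Counted over families, the effective number was 13, 13.4, 13.2, 12.9, 13.6 and 13.5 for Trav and 11.6, 11.7, 11.5, 11.6, 11.4 and 11.6 for Trbv (wild-type, knock-out and knock-in, each naive then day 7), since there are fewer families than segments. By families the mean was higher at day 7 for wild-type Trav and knock-out Trbv, where by segments it was lower. Otherwise the cause was not tested. Mean shares of the named segments moved by less than the spread between libraries in 1004 recomputed values and by more in 4, all from counts per base of exon, chosen after seeing the data (Trbv13-2 11.6%, Trbv2 5.80%, Trbv13-3 7.64% and Trav9-2 1.39%). No paired analysis was possible because each library number in the labels is unique and replicate numbers were given in accession order. Depth limits low segments: under 100 counts over 25 libraries, a share was not described.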
